A study of Rattus norvegicus with 105 samples.

Results

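The molecular clock of skeletal muscle was followed through 10 circadian genes in rat gastrocnemius, a calf muscle, that carried metal pellets for up to 12 months. The 10 genes were Nr1d1, Nr1d2, Dbp, Tef, Per1, Per2, Per3, Cry1, Clock and Npas2, taken by their gene symbols from the 14852 genes that the array could name, and each of them was measured by 1 probe set. They were chosen for belonging to the daily clock and its direct output, with earlier results of these data known. Other measured clock genes, Bmal1 and Cry2 among them, lie outside the set. Levels are log2 values, on which a difference of 1 is a factor of 2, and they are compared between groups for 1 gene at a time, because the brightness of a probe set does not rank different genes.

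Male Sprague-Dawley rats, 30 days old at purchase and acclimated for at least 2 weeks, received 4 pellets, 2 in each hind limb, each a cylinder of 1 mm by 2 mm. The pellets were tantalum, tungsten, lead, nickel, iron, copper, cobalt, aluminum or depleted uranium, and muscle was taken 1, 3, 6 or 12 months after surgery. Tantalum was the implanted sham, so that the control rats also carried surgery and a foreign body; no muscle without a pellet entered the comparisons. There were 35 groups of 3 arrays each, with nickel at 12 months not analysed here. Each array was hybridised with 250 ng of RNA pooled from 2 to 3 of the 8 rats assigned to a group, so that an array is a pool and the spread within a group is a spread between pools. Rats were kept on 12 h of light and 12 h of dark with lights on at hour 6. The hour at which muscle was collected is not given in the sources used here, and its part in any difference between groups was not tested. Months after surgery, age and cohort cannot be told apart.

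The clock is a transcriptional feedback loop that runs in almost every cell, muscle fibres included. BMAL1 pairs with CLOCK, or with its relative NPAS2, binds E-box elements and activates the Period and Cryptochrome genes, whose proteins return to the nucleus and repress that pair. A second loop runs through Nr1d1 and Nr1d2, which encode the nuclear receptors REV-ERB alpha and REV-ERB beta: they are activated through E-boxes and repress Bmal1 and Npas2 through ROR elements. The PAR bZIP factors DBP and TEF carry the rhythm to output genes through D-boxes. In a rodent tissue with a running clock, messages of Bmal1 and Npas2 peak about opposite to those of Nr1d1 and Dbp, and the levels of a sample therefore depend on the hour at which it was taken.

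The elements that tie these genes to each other can be read in the promoters. RefSeq's promoter table for the rat assembly GRCr8, which spans 250 bases before to 50 bases after each annotated start, held 11 windows of 9 of the 10 genes. The 4 windows below are shown because each holds an element of the loop, in capitals, of a gene whose levels are followed here; Bmal1, which is no member of the set, is included because the REV-ERB genes are its repressors and because the members' levels are set against it below. All are written 5′ to 3′ on the strand of the gene.
Nr1d1, chr10:84229405-84229704, minus strand, E-box in capitals: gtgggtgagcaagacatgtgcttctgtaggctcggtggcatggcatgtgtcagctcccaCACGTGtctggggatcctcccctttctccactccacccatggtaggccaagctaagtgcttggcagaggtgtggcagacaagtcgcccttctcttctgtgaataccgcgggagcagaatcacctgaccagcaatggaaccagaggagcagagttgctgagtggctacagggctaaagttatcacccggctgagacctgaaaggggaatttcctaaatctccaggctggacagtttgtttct
Tef, chr7:115206577-115206876, plus strand, E-box in capitals: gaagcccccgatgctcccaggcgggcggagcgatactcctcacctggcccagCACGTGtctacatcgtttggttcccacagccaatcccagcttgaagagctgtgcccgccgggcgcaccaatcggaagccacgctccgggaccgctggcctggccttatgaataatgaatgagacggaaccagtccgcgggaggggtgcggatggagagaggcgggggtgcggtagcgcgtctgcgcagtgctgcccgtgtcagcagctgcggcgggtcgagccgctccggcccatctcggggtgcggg
Per2, chr9:99496944-99497243, minus strand, D-box and then E-box-like element in capitals: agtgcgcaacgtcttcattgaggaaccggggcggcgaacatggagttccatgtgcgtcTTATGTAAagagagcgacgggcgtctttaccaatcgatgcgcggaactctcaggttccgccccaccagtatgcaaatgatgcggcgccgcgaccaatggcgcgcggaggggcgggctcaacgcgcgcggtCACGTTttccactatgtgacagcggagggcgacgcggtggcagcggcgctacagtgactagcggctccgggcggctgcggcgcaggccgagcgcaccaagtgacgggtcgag
Bmal1, chr1:176766078-176766377, plus strand, ROR element in capitals: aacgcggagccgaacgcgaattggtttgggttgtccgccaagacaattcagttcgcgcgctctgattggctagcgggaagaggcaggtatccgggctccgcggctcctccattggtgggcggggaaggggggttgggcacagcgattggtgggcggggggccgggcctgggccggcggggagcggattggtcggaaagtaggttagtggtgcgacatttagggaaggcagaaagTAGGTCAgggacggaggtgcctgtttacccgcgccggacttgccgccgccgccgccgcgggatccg

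Searched on both strands, the E-box CACGTG lay in 2 of the 11 windows, one of 2 annotated starts of Nr1d1 and that of Tef, and in 6.42% of all 33469 promoter windows. The E-box-like CACGTT lay in Per2 and, on the reverse strand, at the other Nr1d1 start, and in 4.83% of all windows. A D-box, TTATGTAA or TTATGCAA, lay in Per2 and in 1.73% of all windows. A ROR element, TAGGTCA or TGGGTCA, lay in none of the 11 windows and in 6.6% of all, with the Bmal1 window among these. The cyclic AMP response element TGACGTCA, in 1.83% of all windows, and the glucocorticoid element, in 0.0149%, lay in none of the 11. None of these words overlapped another in the windows shown. A match describes letters only, and a window of this length leaves out most of the regulatory sequence of a gene.

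The tissue check came out as muscle: the 10 muscle fibre markers, Acta1 and Ckm among them, were all at the 99.7 percentile of probe sets or above. Array medians lay between 6.36 and 6.54, and no pair of arrays was identical. The 3 cobalt arrays at 3 months were the least like the others, with median correlations from 0.9694 to 0.9755 against 0.9856 for the typical array. In 5 arrays, all of them at 6 months, the mean of the muscle fibre markers lay between 12.59 and 13.03, below the 13.25 of the median array of that month. Results over months are given with and without these arrays. In a bulk sample, fewer cells of a type and less RNA per cell cannot be told apart.

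Across the 35 groups, Nr1d1 spread the widest of the 10 genes and Clock the least. The group means of Nr1d1 ran from 9.86 ± 0.04 (SD, n = 3) in aluminum at 6 months to 11.08 ± 0.15 in tantalum at 3 months, a range of 1.22 or 2.33-fold. The SD between its group means was 0.28 against 0.22 within groups, larger than that of 95.2% of all probe sets. Npas2 followed, from 7.01 ± 0.14 in lead at 12 months to 7.91 ± 0.12 in tungsten at 1 month, a range of 0.90, with an SD between groups of 0.22 against 0.18 within.

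Clock, the steady partner of the dimer in most tissues, had group means only between 9.86 and 10.20, a range of 0.34, and its SD between groups was larger than that of only 2.47% of probe sets. Per2 was nearly as even, with a range of 0.41. The other 6 genes had ranges from 0.62 (Nr1d2) to 0.81 (Per1), beside a median of 0.60 over all probe sets. Per1 differs from Nr1d1 in where its spread lies: its arrays scattered by 0.25 within groups and by 0.16 between them. Of the members only Nr1d1 and Npas2 had the larger SD between groups. The median SD over all probe sets was 0.20 within groups and 0.14 between them.

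By limma's moderated F test over the 35 groups with Benjamini-Hochberg adjustment, 7 of the 10 genes passed at an adjusted p below 0.05, beside 39.2% of all probe sets. Those that did not were Per1 (adjusted p = 0.251), Per2 (0.0966) and Clock (0.102). The smallest adjusted p were those of Nr1d1 (2.57e-08) and Npas2 (3.54e-07). The share of variance that lay between groups was 70.9% for Nr1d1 and 68.8% for Npas2, against a median of 43.0% over all probe sets.

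**Figure D1:**
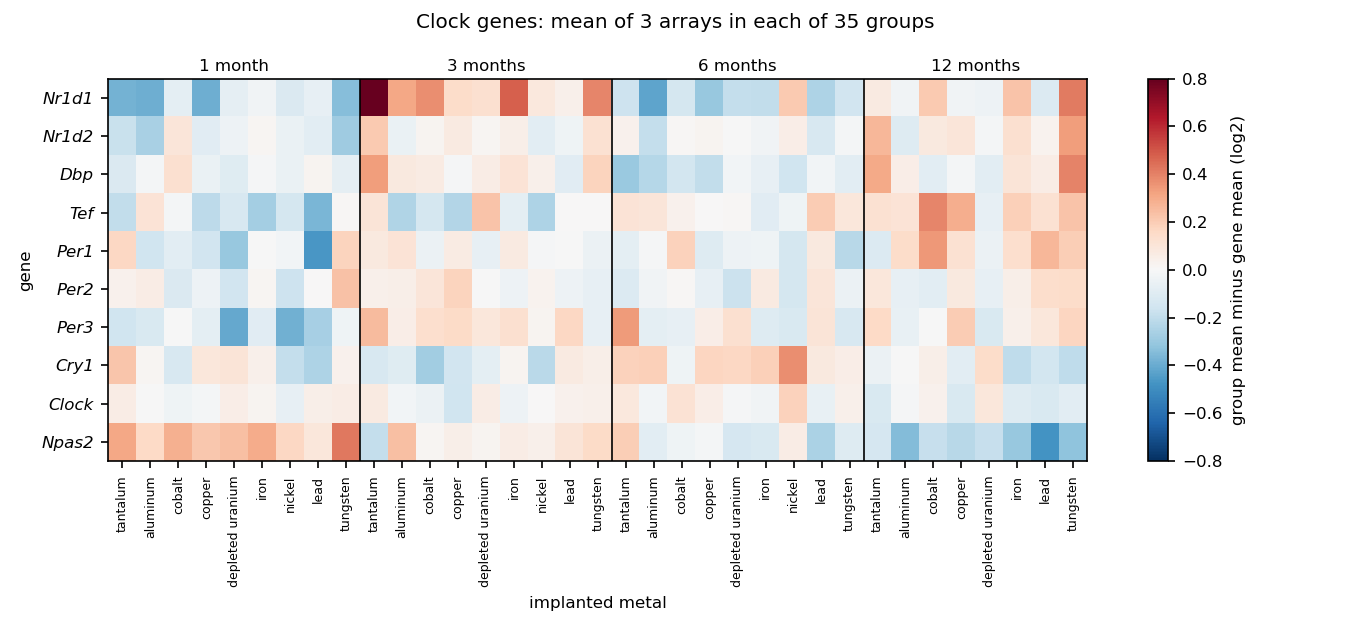
Mean log2 level of each clock gene (rows) in each of the 35 groups (columns, by month and metal) minus the gene's mean over groups, 3 arrays per group; red is higher and blue lower. Nr1d1 is highest in tantalum at 3 months (11.08) and Npas2 is blue in all 8 groups at 12 months.

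More of the genes passed the test between months than that between the metals of a month. These tests differ in precision, so their counts cannot be compared directly. For Nr1d1 the SE was 0.06 for a step between months over 8 metals and 0.18 for a metal minus tantalum of a month. Between months, over the 8 metals with 4 months, 8 of the 10 genes passed the F test (60.3% of all probe sets), all but Per2 (adjusted p = 0.405) and Clock (0.0569). Among the metals of a month, 9 of them or 8 at 12 months, 0 genes passed at 1 month (4.77% of all probe sets; 4 genes at an unadjusted p below 0.05), 1 gene, Nr1d1, at 3 months (adjusted p = 0.0144, and 0.599 or 0.146 without replicate 1 or 2 of every group; 8.87%), 0 at 6 months (0% of all probe sets; 0 unadjusted) and 0 at 12 months (0% of all probe sets; 2 unadjusted), in limma. For the interaction of metal and month, 0 genes passed in limma (5.58% of all probe sets), with 3 at an unadjusted p below 0.05. The shares of all probe sets in these F tests are of adjusted calls. No share stands beside the unadjusted counts, which are therefore not to be read against those shares.

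The REV-ERB genes were highest at 3 and 12 months. Over the 27 arrays of a month, or 24 at 12 months, Nr1d1 had its lowest, median and highest level at 9.49, 10.11 and 10.52 at 1 month, 10.06, 10.61 and 11.25 at 3 months, 9.65, 10.11 and 10.62 at 6 months, and 9.99, 10.39 and 10.87 at 12 months. The arrays of the 4 months overlapped, with the 3-month arrays shifted up as a body. Against 1 month, Nr1d1 rose by 0.55 ± 0.06 (SE of the model, over 8 metals; limma adjusted p = 1.1e-10) at 3 months and by 0.31 ± 0.06 (2.77e-05) at 12 months, while the difference at 6 months was -0.01 ± 0.06 (0.934).

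The rise of Nr1d1 at 3 months was above 0 in 8 of 8 metals, from 0.11 in lead to 1.18 in tantalum. Its paralogue Nr1d2 was also higher at 3 and 12 months, with smaller steps and with its highest month mean at 12 months (9.69 against 9.64 at 3 months). Nr1d2 rose by 0.15 ± 0.04 (limma adjusted p = 0.00278) at 3 months and by 0.20 ± 0.04 (1.26e-05) at 12 months, with 0.06 ± 0.04 (0.198) at 6 months. Its rise at 3 months did not pass without replicate 1 or 3 of every group (limma adjusted p = 0.083 and 0.114). In tungsten Nr1d2 read 9.30, 9.27 and 9.34 at 1 month and 10.04, 9.85 and 9.89 at 12 months, its lowest and its highest group.

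Of the output factors, Tef rose at 6 and at 12 months, and Dbp passed at 12 months with a step no larger than at 3 months. Tef, the PAR bZIP gene first described in thyrotrophs, had month means of 7.40, 7.49, 7.59 and 7.71 at 1, 3, 6 and 12 months. It rose by 0.19 ± 0.05 (limma adjusted p = 0.00261) at 6 months and by 0.31 ± 0.05 (1.55e-06) at 12 months, where it was above 0 in 8 of 8 metals. Without replicate 2 of every group Tef did not pass at 6 months (limma adjusted p = 0.174). The step of Tef at 12 months was uneven over the metals, from 0.00 in aluminum to 0.50 in copper.

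Dbp, whose protein binds D-boxes and whose message is among the most rhythmic in rodent tissues, had month means of 9.20, 9.31, 9.09 and 9.31. Dbp differed from 1 month by 0.12 ± 0.05 at 3 months (limma adjusted p = 0.0822), by -0.11 ± 0.05 at 6 months (0.0835) and by 0.12 ± 0.05 at 12 months (0.0458). At 12 months its largest values were those of tungsten (0.47) and tantalum (0.42), the other 6 metals lying between -0.21 (cobalt) and 0.12 (iron). The array of tungsten at 12 months that read 10.09 is the highest Dbp value of the series; its companions read 9.24 and 9.53. Dbp at 12 months did not pass without tantalum (adjusted p = 0.274), nor without replicate 1 or 2 of every group (0.305 and 0.212).

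Of the Period genes, repressors of the loop, Per3 and Per1 rose and Per2 did not pass in any month. Per3 had month means of 7.54, 7.80, 7.72 and 7.75, and it rose by 0.26 ± 0.06 (limma adjusted p = 0.000359) at 3 months, 0.18 ± 0.06 (0.00866) at 6 months and 0.21 ± 0.06 (0.00173) at 12 months. At 12 months Per3 was above 0 in 8 of 8 metals, from 0.00 in cobalt to 0.35 in lead. Per3 did not pass at 3 months without replicate 3 of every group (limma adjusted p = 0.0724). It did not pass at 6 months without replicate 1 or 3 (0.0674 and 0.103), nor at 12 months without replicate 1 (0.103). Per1, the Period gene that also answers acutely to glucocorticoids and cyclic AMP, rose by 0.23 ± 0.07 (0.0047) at 12 months, with 0.12 ± 0.07 (0.228) at 3 months and 0.07 ± 0.07 (0.438) at 6 months. Without replicate 1 of every group Per1 did not pass at 12 months (limma adjusted p = 0.109).

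The rise of Per1 at 12 months was above 0 in 7 of 8 metals, with the lowest value in tantalum (-0.28) and the highest in lead (0.73). Per2 had month means of 7.67, 7.70, 7.64 and 7.70. Its 3 differences from 1 month lay between -0.03 and 0.03 with an SE of 0.04, and the smallest adjusted p was 0.528. Cry1, the Cryptochrome gene of the set and a repressor of CLOCK and BMAL1, passed the F test between months (limma adjusted p = 0.000361) but none of the 3 steps from 1 month: -0.09 ± 0.05 (0.168) at 3 months, 0.11 ± 0.05 (0.0502) at 6 months and -0.08 ± 0.05 (0.175) at 12 months.

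Cry1 had its highest month mean at 6 months (7.14) and its lowest at 3 months (6.94), while Dbp had its lowest at 6 months (9.09). Nickel at 6 months held the highest Cry1 group, with arrays at 7.47, 7.36 and 7.34. Same-numbered arrays deviated together in all 8 comparisons at 6 months, and in the fit with the replicate block 5 genes in place of 3 differed between 6 months and 1 month: Cry1 rose by 0.11 (adjusted p = 0.0418) and Dbp fell by 0.11 (0.0465) beside the calls named here. The share of all probe sets called in that fit is not given.

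The activators went the other way. Npas2, which can stand in for CLOCK in the dimer, was lower at each later month, and its lowest, median and highest arrays were 7.40, 7.73 and 8.04 at 1 month, 7.13, 7.57 and 7.92 at 3 months, 7.07, 7.45 and 8.01 at 6 months, and 6.86, 7.23 and 7.53 at 12 months. The arrays overlapped between neighbouring months. Against 1 month Npas2 fell by 0.19 at 3 months (SE 0.05; limma adjusted p = 0.00345), by 0.32 at 6 months (SE 0.05; 2.88e-07) and by 0.52 at 12 months (SE 0.05; 2.73e-14). Its fall at 3 months did not pass without replicate 3 of every group (limma adjusted p = 0.159).

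The fall of Npas2 was below 0 in 8 of 8 metals at 6 and at 12 months and in 6 of 8 at 3 months. At 12 months it ran from -0.43 in depleted uranium to -0.74 in tungsten. Clock itself moved little: its month means were 10.04, 10.01, 10.04 and 9.96, and it fell by 0.08 (SE 0.03; limma adjusted p = 0.0264) at 12 months. Without tantalum Clock did not pass there (-0.06, 0.114), nor without replicate 1 or 2 of every group (0.144 and 0.211).

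**Figure D2:**
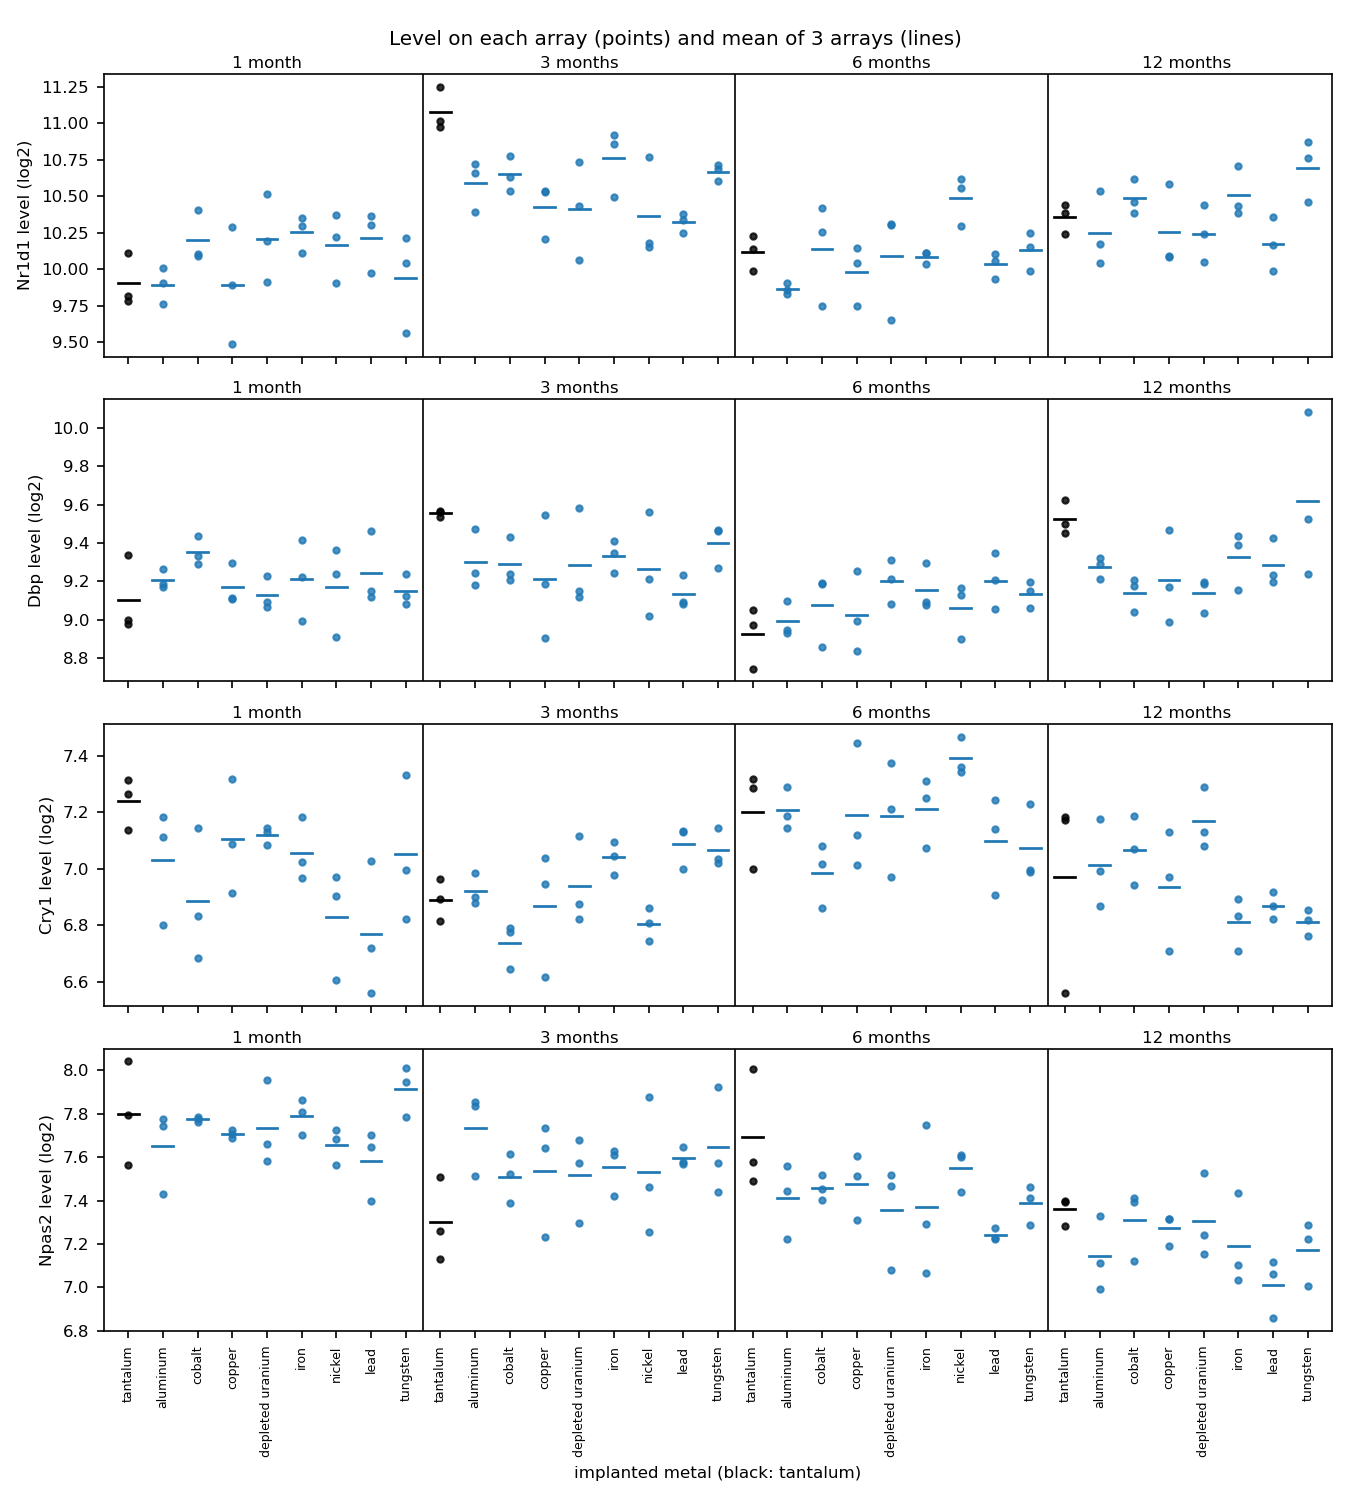
Log2 level on each array (points) and mean of 3 arrays (lines) for Nr1d1, Dbp, Cry1 and Npas2 in the 35 groups, ordered by month and metal, with tantalum in black. The 3 tantalum arrays at 3 months (10.98 to 11.25) are the 3 highest Nr1d1 values, and Npas2 descends from 1 to 12 months.

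In counts, at 3 months 3 genes rose (Nr1d1, Nr1d2, Per3; 9.81% of all probe sets rose) and 1 fell (Npas2; 10.3%). At 6 months 2 rose (Tef, Per3; 17.2%) and 1 fell (Npas2; 19.6%). At 12 months 6 rose (Nr1d1, Nr1d2, Dbp, Tef, Per1, Per3; 23.4%) and 2 fell (Clock, Npas2; 20.7%). The median difference over the 10 genes was 0.10, 0.03 and 0.16 at 3, 6 and 12 months, against 0.00, 0.00 and 0.02 over all probe sets. Without tantalum the counts were 4, 3 and 6, without cobalt 4, 3 and 8, and without the 5 arrays of low muscle fibre level 4, 3 and 8; at 6 months Cry1 passed in place of Per3 both without tantalum (Cry1 0.13, adjusted p = 0.0238; Per3 0.13, 0.095) and without those 5 arrays (Cry1 0.13, 0.0389; Per3 0.14, 0.0678). Without replicate 3 of every group, only Nr1d1 passed at 3 months, and without replicate 1, 4 genes in place of 8 passed at 12 months. The shares of all probe sets above are those of the main fit. Counts from the refits have no share beside them, so a change in them is not particular to these genes.

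**Figure D3:**
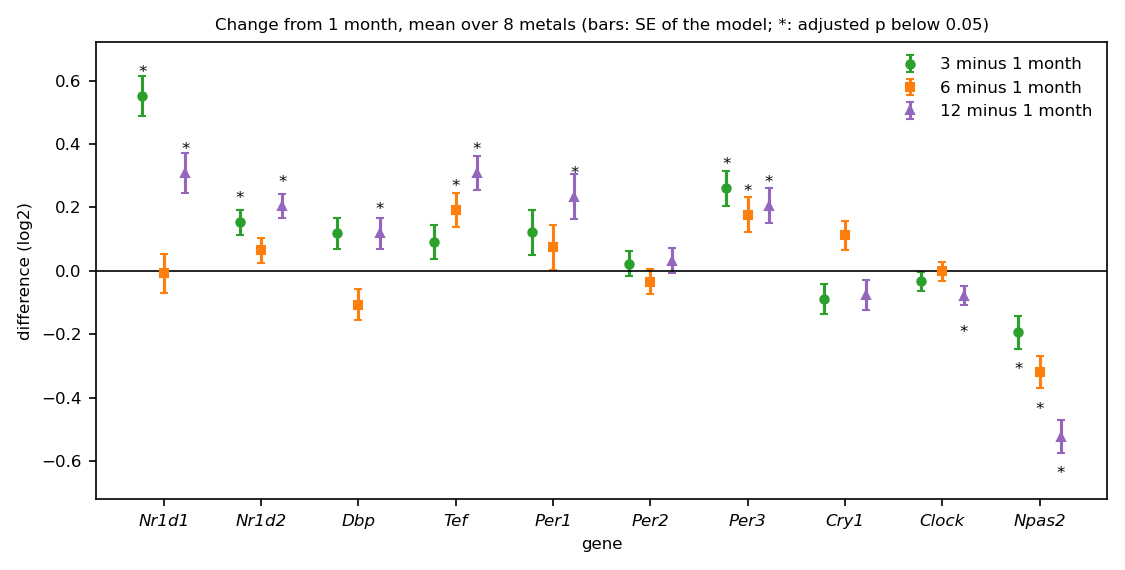
Difference in log2 level from 1 month, at 3, 6 and 12 months, as the mean over 8 metals, for each clock gene; bars are the SE of the model and asterisks mark an adjusted p below 0.05. Nr1d1 stands at 0.55 at 3 months and returns to -0.01 at 6 months, and Npas2 falls to -0.52 at 12 months.

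Of 11 further core clock genes on the array, 0 rose and 1 fell at 3 months, 2 rose and 0 fell at 6 months, and 4 rose and 2 fell at 12 months. Over all probe sets 9.81% rose and 10.3% fell at 3 months, 17.2% and 19.6% at 6 months and 23.4% and 20.7% at 12 months, against which the counts of these and the next lists are to be read. Bmal1 fell by 0.18 (SE 0.05; limma adjusted p = 0.00138) at 12 months, with -0.12 ± 0.05 (0.0654) at 3 months. Nfil3, a repressor that binds the same D-boxes as DBP and TEF, fell by 0.16 (0.0399) at 3 months and by 0.25 (0.000213) at 12 months. Bhlhe40, which encodes the E-box repressor DEC1, rose by 0.24 ± 0.04 (6.77e-07) at 12 months.

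Of 16 measured genes with a daily rhythm in muscle or most tissues, 4, 5 and 7 rose at 3, 6 and 12 months and 0, 1 and 1 fell. The cold-inducible RNA-binding gene Cirbp rose most clearly, by 0.27, 0.35 and 0.50 (limma adjusted p at 12 months = 5.77e-19), and Tspan4 was the one that fell, by 0.29 (0.000116) at 12 months. Of 10 genes of the glucocorticoid response, 2, 6 and 6 rose and 1, 0 and 1 fell; the one that fell, Fkbp5, a chaperone of the receptor, fell by 0.26 at 12 months (adjusted p = 0.00103) in a list whose other called members rose. Of 10 immediate early genes, 1, 1 and 3 rose and 0, 3 and 1 fell.

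Markers of other cells moved with the months as well. All 6 fibroblast and matrix markers, Col1a1 and Dcn among them, fell at 3, 6 and 12 months, with medians of -0.43, -1.04 and -1.06. Their mean level per array ranged from 9.81 to 11.35 at 1 month and from 8.70 to 9.53 at 12 months. Of 4 endothelial markers 2, 4 and 4 fell, and of 8 macrophage markers 2, 6 and 5 fell, with 1 that rose at 3 months. Of the 6 lymphocyte markers, 5 of them in the dimmest 30% of probe sets, 4 rose at 3 months, as did 3 of 3 general leukocyte markers. Of the 10 muscle fibre markers, 1, 7 and 3 fell and 1, 0 and 1 rose. The part of these shifts in the changes of the clock genes was not tested.

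Within the tantalum sham alone, 1 of the 10 genes passed against 1 month at 3 months, 0 at 6 months and 3 at 12 months in limma. Nr1d1 read 10.11, 9.78 and 9.82 on the 1-month arrays, 11.25, 10.98 and 11.02 at 3 months, 9.99, 10.14 and 10.23 at 6 months, and 10.24, 10.44 and 10.38 at 12 months. The 3-month arrays lay above the arrays of the other 3 months without overlap. Nr1d1 rose by 1.18 ± 0.18 (limma adjusted p = 6.63e-05) at 3 months, the only member among the 0.222% of probe sets that passed in either direction. In 15 alternatives its adjusted p ran from 3.12e-05 to 0.0514, the highest without replicate 2 of every group.

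At 6 months in tantalum, 0 members passed in limma (4.76% of probe sets), with 2, Tef and Per3, at an unadjusted p below 0.05 (17.9% of probe sets). Per3 at 6 months, 8.15, 7.98 and 7.96 against 7.65, 7.52 and 7.42 at 1 month, differed by 0.50 ± 0.16 (adjusted p = 0.0502; 0.0152 with the replicate block). At 12 months 3 members passed, beside 7.85% of probe sets. Nr1d2 rose by 0.44 ± 0.11 (adjusted p = 0.00609), with arrays at 9.79, 9.92 and 9.85 against 9.34, 9.31 and 9.59; without replicate 1 or 2 of every group it did not pass (0.103 and 0.106).

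Dbp rose by 0.42 ± 0.14 (limma adjusted p = 0.0484) in tantalum at 12 months and Npas2 fell by 0.44 (SE 0.14; 0.0421). Neither call held when most of the arrays were left out in turn, although the differences stayed between 0.36 and 0.54 for Dbp and between -0.56 and -0.32 for Npas2. Leaving out any 1 of the 6 arrays except the first at 1 month ended the Dbp call (adjusted p from 0.0737 to 0.19), and leaving out any 1 except the third at 1 month ended that of Npas2 (0.0796 to 0.267). No marker of macrophages or lymphocytes passed in tantalum at 3 months; of the fibroblast and matrix markers 2 of 6 fell there and 4 of 6 at 12 months.

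Whether the sham itself is unusual within its month bears on every comparison that uses it. Against the mean of the other metals of the month, 0 of 40 values passed in limma (0.0643% of all probe sets over the 4 months). Of the 40, 9 had an unadjusted p below 0.05, beside 7.02% (3 months) to 8.94% (6 months) of all probe sets. The largest was Nr1d1 at 3 months, where tantalum lay 0.56 ± 0.13 above the other metals (adjusted p = 0.0674); with array weights it passed (0.58, 0.0111). The arrays of the other 8 metals read between 10.06 and 10.92, all of them below the 3 tantalum arrays. Npas2 in tantalum differed by -0.28 ± 0.11 (0.52) at 3 months and by 0.29 ± 0.11 (0.451) at 6 months, and Per3 by 0.37 ± 0.12 (0.385) at 6 months.

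Each metal was then set against tantalum of its month, which asks what the metal did beyond the implanted sham. Of 310 values, 10 genes in 31 comparisons, 2 passed in limma, against 0.443% of all probe sets, and 49 had an unadjusted p below 0.05. Of all probe sets, from 3.81% (depleted uranium, 3 months) to 20.1% (lead, 1 month) were below that unadjusted level in a single comparison. The comparisons of a month share the 3 tantalum arrays and are not independent of each other. Both calls were decreases: Nr1d1 with nickel at 3 months and Cry1 with lead at 1 month.

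Nr1d1 read 10.15, 10.18 and 10.77 in nickel at 3 months against 11.25, 10.98 and 11.02 in tantalum. The groups did not overlap, and 1 nickel array lay close to the tantalum range. The difference was -0.72 ± 0.18 (limma adjusted p = 0.00662; 0.597% of probe sets were lower in nickel). Lead differed by more at the same month, -0.76 ± 0.18 on arrays at 10.34, 10.38 and 10.25, and did not pass (adjusted p = 0.168, unadjusted 4.4e-05). The unadjusted p in limma was larger for nickel, 0.000112. Adjustment was made within each comparison, where it depends on the other probe sets. In nickel 647 probe sets were called higher and 137 lower, against 0 and 4 in lead. All 8 metals lay below tantalum at 3 months, from -0.76 to -0.32 (iron).

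With the mean of the other metals as the reference in place of tantalum, Nr1d1 in nickel at 3 months differed by -0.25 (limma adjusted p = 0.422). The call was also lost without the first or second nickel array (0.105 and 0.0873) and without the first tantalum array (0.0691). Over its months, the difference between nickel and tantalum in Nr1d1 was 0.26 at 1 month, -0.72 at 3 months and 0.37 at 6 months, and this change between months passed (adjusted p = 0.00766; 1.22% of probe sets). In tantalum itself Nr1d1 rose by 1.18 between 1 and 3 months.

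Leukocyte and matrix genes were high in the same nickel arrays. Of 8 macrophage markers, 7 were called higher in nickel at 3 months (median 0.93; 2.82% of probe sets were higher), as were 2 of 6 lymphocyte, 2 of 3 general leukocyte and 4 of 6 matrix markers. The mean macrophage marker level ran from 7.86 to 8.22 in nickel and from 6.98 to 7.30 in tantalum. Of the 10 muscle fibre markers 0 passed in limma there, their mean being 13.25 to 13.28 against 13.31 to 13.35. Of the macrophage markers Adgre1 lay in the dimmest 30% of probe sets. The part of these cells in the lower Nr1d1 was not tested.

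Cry1 read 6.72, 6.56 and 7.03 in lead at 1 month against 7.27, 7.31 and 7.14 in tantalum, without overlap. The difference was -0.47 ± 0.13 (limma adjusted p = 0.0326), in a comparison with 1.73% of probe sets lower. Without the first or second lead array the adjusted p was 0.0853 and 0.323, without the first or second tantalum array 0.085 and 0.138, and with the arrays of that month alone 0.0828. Adjusted over all 31 comparisons together it was 0.125. All 8 metals lay below tantalum in Cry1 at 1 month, from -0.47 in lead to -0.12 in depleted uranium. Nickel differed by -0.41, also without overlap. Tantalum itself lay 0.26 ± 0.10 above the mean of the other metals there (limma adjusted p = 0.367). These comparisons share the 3 tantalum arrays.

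Other clock genes were low in the same lead group. Per1 read 8.23, 8.09 and 7.41 against 8.66, 8.56 and 8.41, a difference of -0.63 ± 0.20 that missed the threshold (limma adjusted p = 0.0581). Of the further core clock genes, 3 of 11 fell with lead at 1 month: Cry2, the second Cryptochrome gene, by 0.51 (0.0279), Nfil3 by 0.58 (0.0371) and Csnk1e, which encodes a kinase of the Period proteins, by 0.41 (0.0246). Of the daily rhythm genes 1 of 16 fell, the cell cycle kinase gene Wee1 by 0.57 (0.0302). Not all of this was particular to lead. Per1 lay below the same tantalum arrays in the other metals too, from -0.47 (depleted uranium) to -0.17 (iron), except tungsten (0.01). Nfil3 was also lower with nickel at 1 month (-0.62, limma adjusted p = 0.0469). In limma, none of the macrophage, lymphocyte, leukocyte, matrix, endothelial or muscle fibre markers passed there, and the skin keratin Krt14 was higher.

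**Figure D4:**
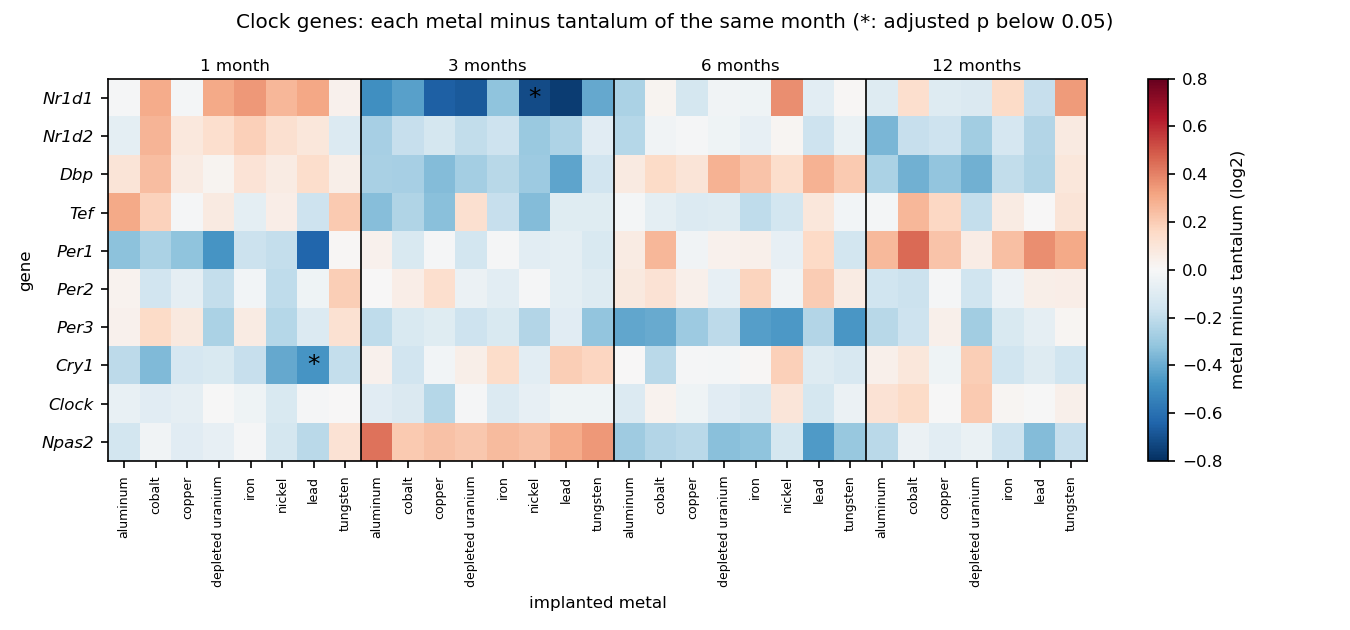
Log2 difference of each metal from tantalum of the same month for each clock gene (rows), with red higher and blue lower than tantalum; asterisks mark the 2 values with an adjusted p below 0.05. At 3 months the Nr1d1 row is blue in all 8 metals, from -0.76 in lead to -0.32 in iron, and the comparisons of a month share their tantalum arrays.

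The other 8 genes had no call in any month. Their differences from tantalum ran from -0.63 (Per1) to 0.45 (Per1, cobalt at 12 months), with an SE between 0.08 for Clock and 0.20 for Per1. Npas2 lay above tantalum in all 8 metals at 3 months and below it in all 8 at 6 months, and each month's comparisons share its tantalum arrays: 7.51, 7.13 and 7.26 at 3 months and 8.01, 7.58 and 7.49 at 6 months. Per2 was the most even, from -0.20 to 0.20, with 0 values at an unadjusted p below 0.05 among 31.

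Averaged over months, 2 of 80 values passed in limma, beside 0.545% of all probe sets, with 12 at an unadjusted p below 0.05. Of all probe sets, from 6.25% (tungsten) to 18.7% (lead) were below that unadjusted level in the mean of a single metal. Nr1d2 differed with aluminum by -0.24 ± 0.06 (adjusted p = 0.0453; 0.109% of probe sets were lower). Its monthly differences from tantalum were -0.08, -0.27, -0.23 and -0.37 at 1, 3, 6 and 12 months. Of 34 alternatives, 19 ended the call, with adjusted p up to 0.57. Single arrays whose loss ended it were, for aluminum, replicates 1 and 3 at 1 month, 1 and 2 at 3 months, 2 at 6 months and 1 and 2 at 12 months, and for tantalum replicate 3 at 1 month, 1 and 3 at 3 and at 6 months and any of the 3 at 12 months (0.0508 to 0.132). Against the mean of the other metals the difference was -0.18 ± 0.04 (0.049).

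Per3 differed with nickel by -0.31 ± 0.09 (limma adjusted p = 0.0449; 0.985% of probe sets were lower). It read 7.14, 7.51 and 7.26 in nickel at 1 month, 7.59, 7.61 and 7.92 at 3 months and 7.69, 7.57 and 7.45 at 6 months, where the groups overlapped tantalum at 1 and 3 months but not at 6. Of 28 alternatives, 18 ended this call. Leaving out any 1 array did so (0.0537 to 0.106), except nickel replicate 2 at 1 month, 3 at 3 months and 1 at 6 months and tantalum replicate 3 at 1 month and 2 at 3 months. Against the other metals the difference was -0.16 (adjusted p = 0.23). Of the 8 macrophage markers 5 were higher in nickel as a mean over months (median 0.48), and their part in the lower Per3 was not tested.

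Over the 35 group means several of the genes varied together. Of 55 pairs among the 10 genes and Bmal1, 21 correlated at an adjusted p below 0.05 (two-sided permutation test, 100000 resamples), 11 positively and 10 negatively, and 18 of the 21 also by Spearman's rho. The groups share months, and both genes of a pair come from the same arrays and normalization. The permutations moved groups across months, and 60.3% of all probe sets differed between months. Pairs of other genes were not counted, so the 21 have no share over all genes beside them. The REV-ERB genes and Dbp varied together: Nr1d1 with Nr1d2 had r = 0.69 (rho = 0.68; adjusted p = 0.000275), Nr1d1 with Dbp r = 0.67 (rho = 0.64; 0.000275) and Nr1d2 with Dbp r = 0.61 (rho = 0.47; 0.00157).

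Within months, over 9 groups and 8 at 12 months, Nr1d1 with Nr1d2 gave r = 0.78, 0.77, 0.67 and 0.72 at 1, 3, 6 and 12 months, and Nr1d1 with Dbp 0.44, 0.92, 0.06 and 0.56. Cry1, Clock and Npas2 went with Bmal1. Cry1 with Bmal1 had r = 0.72 (rho = 0.66; adjusted p = 0.000275), and within months 0.53, 0.83, 0.42 and 0.95. Clock with Bmal1 had r = 0.71 (rho = 0.68; 0.000275), within months 0.06, 0.46, 0.84 and 0.86, and Npas2 with Bmal1 r = 0.51 (rho = 0.51; 0.0084), within months 0.56, 0.31, 0.94 and 0.54. The unadjusted p of 1e-05, for Nr1d1 with Nr1d2 and for Clock with Bmal1, is the smallest these permutations can give.

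Between these sets of genes the called correlations were negative. Nr1d1 with Bmal1, the pair of repressor and target, had r = -0.40 (rho = -0.42; permutation adjusted p = 0.0477), within months -0.25, -0.14, 0.50 and -0.31. With each month's mean removed, this pair had r = -0.06 (permutation adjusted p = 0.848). Dbp with Bmal1 had r = -0.65 (rho = -0.66; permutation adjusted p = 0.00055), within months -0.30, -0.03, -0.78 and -0.68. Per2 with Bmal1 had r = -0.57 (rho = -0.59; 0.00336), within months -0.08, -0.64, -0.65 and -0.75, and Dbp with Cry1 r = -0.62 (rho = -0.72; 0.00101). Tef with Npas2 had r = -0.59 (rho = -0.63; 0.00186), but within months 0.31, -0.42, -0.18 and 0.09, with no common sign.

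Without the 2 groups farthest from the median of the first gene, over 33 groups, r was 0.68 for Nr1d1 with Nr1d2, 0.66 for Cry1 with Bmal1, 0.68 for Clock with Bmal1 and -0.62 for Dbp with Bmal1. Tef with Per1 went from 0.44 to 0.19, and Nr1d2 with Npas2 from -0.41 to -0.23, so these 2 relations rest on those groups. With each month's mean removed, 10 of the 55 pairs passed in place of 21. These were the 3 pairs among Nr1d1, Nr1d2 and Dbp, those of Bmal1 with Cry1, Clock, Npas2, Dbp (-0.49) and Per2 (-0.50), and Cry1 with Clock (0.46) and with Npas2 (0.45). Of the 21 pairs, 11 kept their sign in all 4 months.

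**Figure D5:**
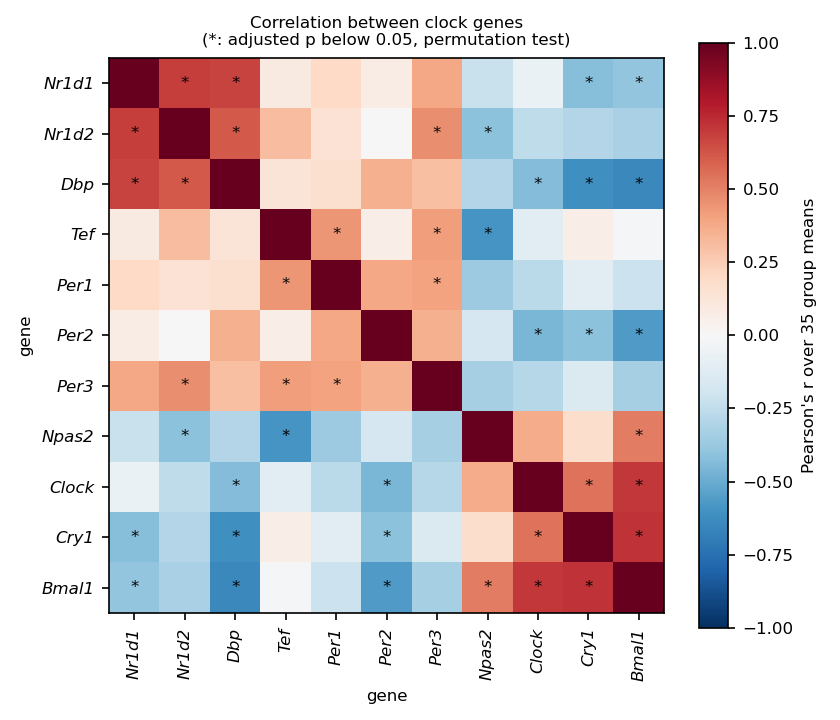
Pearson's r over the 35 group means between each pair of the 10 clock genes and Bmal1, red positive and blue negative; asterisks mark an adjusted p below 0.05 in a permutation test over 55 pairs. Bmal1 is positive with Cry1 (0.72), Clock (0.71) and Npas2 (0.51) and negative with Dbp (-0.65) and Per2 (-0.57).

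Each member was set against 14842 named genes by r over the group means, as a description with no test. The members themselves were not among these genes, so no member could appear as a match of another. Some of the closest matches were clock genes outside the set. Bmal1 was the highest of all for both Cry1 and Clock, the fourth lowest for Dbp and the sixth lowest for Per2. Nfil3 came next to it for Cry1 (0.70). For the other members Bmal1 lay farther from the ends, although toward the low end for several. It ranked 495 from the lowest for Nr1d1, 951 for Nr1d2, 995 for Per3 and 2356 for Per1, and 1900 from the highest for Npas2. Outside the set, the highest matches of Nr1d1, Nr1d2, Dbp and Per3 were Nfix (0.73), Eif3a (0.71), Stk40 (0.62) and Diaph1 (0.73). None of these is in the clock or daily rhythm lists. The r of Dbp with the member Nr1d1, given above, was larger than its r with Stk40. For Tef, Bmal1 ranked 7401 from the top. The closest genes of Tef were the lipid kinase gene Pip4k2b (0.84) and Kcnj11 (0.81), a potassium channel gene.

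The immediate early gene Nr4a1 was the highest match of both Per1 (0.77) and Per2 (0.59), and over deviations of the arrays from their group means it gave 0.51 with Per1 and 0.31 with Per2. The glucocorticoid-induced Tsc22d3 was the second lowest for Dbp (-0.66), and Fkbp5 the lowest for Nr1d2 (-0.66). Nr1d1 had the haemoglobin genes Hbbl1 (-0.77) and Hbb (-0.76) as its lowest, although over deviations within groups these gave -0.12 and -0.15. For Npas2, Prkag1 (0.89), a subunit of AMP-activated protein kinase, and the thyroid hormone receptor gene Thra (0.88) were highest, with -0.18 and -0.13 within groups.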

How the data were processed

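Per the labels, total RNA of gastrocnemius was hybridised to Clariom S Rat arrays. The deposited log2 values were made by the authors with RMA, which subtracts background, equalises distributions by quantiles and summarises each probe set, in the R package oligo under R 4.0.1, per the submitters' processing notes; whether all arrays went through 1 run is not given in the sources used here. Of 22977 probe sets, 23 controls were left out and 22954 tested, with no filter; 14855 had 1 gene symbol from GEO's platform table, updated by gene ID to GRCr8. No gene is on a probe set with several symbols, and array coordinates are not used, since their build is not stated. The number of arrays limits the precision.

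In limma 3.58.1 (R 4.3.3), every array entered a single fit (lmFit, eBayes) that gave each group its own mean and left 70 residual degrees of freedom. Two-sided p-values were adjusted by Benjamini-Hochberg across the 22954 probe sets, at a threshold of 0.05; ± after a difference is the model's SE. The fit was tested on simulated data. Correlations were computed in Python 3.11.15 with numpy 2.4.6. The members, lists and tests were chosen with earlier results of these data known. All 10 members are named; of other lists, up to 4 genes with the smallest adjusted p, and any needed for a count. A gene most alike is one of the 3 highest or 2 lowest by r among the named genes that are not members.

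Replicate numbers come from the labels. Deviations of same-numbered arrays from their group means correlated by more than 0.1 in every pair in 13 of 31 comparisons, 8 of 8 at 6 months, 5 of 7 at 12 months and 0 at 1 and 3 months (r from -0.11 to 0.32), and the replicate block was run as an alternative. Others were the dimmest 30% left out, array weights, quantile normalization run again, robust eBayes with a trend, the arrays of a month alone, adjustment over 31 comparisons, other metals as the reference, and arrays left out. Leaving out tantalum, cobalt or 5 arrays of low muscle fibre level, and single arrays for tantalum over time and means, were chosen after seeing the data.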

Additional observations from a re-analysis of the deposited data

Results flagged for a closer look

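The difference between nickel and tantalum in Nr1d1 changed between months (limma moderated F, adjusted p = 0.00766): it was 0.26 at 1 month, -0.72 at 3 months and 0.37 at 6 months. The 3-month value sets nickel arrays at 10.15, 10.18 and 10.77 against tantalum arrays at 11.25, 10.98 and 11.02, the 3 highest Nr1d1 values of the series. For the other 9 members this test gave no call in nickel, and in the other 7 metals it gave no call for any member. In those metals the unadjusted p of Nr1d1 ran from 0.000667 in lead (adjusted p = 0.168, 0.152% of probe sets called) to 0.241 in aluminum. In nickel 1.22% of probe sets were called. The F test for the interaction over all metals did not pass for Nr1d1 (limma adjusted p = 0.0958).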

How the results depend on the processing

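Of 153 counts of called genes recomputed under an alternative, 125 stayed within 1.5 times the main count, 18 were lower and 10 higher; of 158 recomputed single calls, 83 remained past the threshold and 75 did not, and 0 reversed. The cause was not tested. Counts of 0 that stayed at 0 are among the 125, and a count can stay while its genes change. No share of all probe sets called under the same alternative stands beside these counts, so their changes are not particular to the members. With the replicate block, the calls were 1 among metals at 1 month (Nr1d2), 2 at 3 months (Tef added), 1 for the interaction (Tef), 1 for tantalum against the other metals (Nr1d1 at 3 months, adjusted p = 0.0415) and 5 at 6 against 1 month; it also added Per1 with lead at 1 month (0.0143), Nr1d2 and Per3 in tantalum at 3 and 6 months (0.04 and 0.0152), Dbp at 3 months (0.0413), Per1 among the 35 groups (0.0352) and Clock between months (0.0403), and it ended no call. With array weights they were 5 by month against tantalum (Nr1d1 with copper and lead and Nr1d2 with nickel at 3 months added), 2 among metals at 3 months, 1 for the interaction (Nr1d1), 1 for tantalum against the others and 5 at 6 against 1 month. A second quantile normalization left 0 means over months, and the other metals as the reference left 0 by month and 1 mean (Nr1d2 with aluminum). With month means removed, 10 correlations passed. Without replicate 1, 2 or 3 of every group, calls ranged from 0 to 2 by month against tantalum, 0 to 0 as means, 3 to 5 among the 35 groups, 0 to 1 among metals at 3 months, 0 to 2 in tantalum between months, 1 to 4 at 3 months and 4 to 8 at 12 months against 1 month; a smaller number of arrays is part of these fits. A mean over several probe sets was not run, since each member has 1. Signal was not a limit for the members: every one of them lay above the dimmest 30% of probe sets (5.45), the faintest being Cry1 at 7.02.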
